A study of Mus musculus with 8 samples.

Results

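The genes described here are 31 genes of glycolysis and of the response to low oxygen, taken by their symbols from the 32286 gene features of 4 single-cell count matrices. All 31 were present. They comprise 2 transporters, 13 glycolytic enzymes, 2 regulators of glycolytic flux, 3 genes of the hypoxia-inducible factor (HIF) system and 11 genes known to be induced by low oxygen. UMI counts of each gene were summed over the cells of each class and library and are given as CPM, each class and library being scaled to the same total of UMIs.

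Glycolysis turns glucose into pyruvate, and lactate dehydrogenase turns pyruvate into lactate, which is exported with a proton. HIF1A is held low in oxygenated cells by prolyl hydroxylases of the EGLN family, and when oxygen falls it binds a short DNA motif and raises glucose transporters, glycolytic enzymes, the vascular growth factor VEGFA and its own hydroxylase EGLN3. In lung tumours the same genes can also be driven by oncogenes and inflammatory signals, and myeloid cells use them when they are activated.

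The samples were lung adenocarcinomas of mice, labelled KPC in the sample records and KP in the study's design text, induced by lentivirus given into the trachea and collected as the largest tumours 16 weeks later. CRISPR activation, which raises a target gene from its promoter, was applied in the tumour cells from initiation using guides labelled dRNA. The target was Malat1 in the group mA1 and Tomato in the control group Con, and the labels give 4 tumours per group. Both groups carried the same tumour model and the CRISPR activation system, and no age, sex or link from tumour to mouse was available. Each group had 2 libraries of 10x 3' gene expression, each holding cells marked with 1 of 2 hashtag antibodies.

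After filtering, 7060 and 5599 cells remained in Con libraries 1 and 2, and 7341 and 3774 in mA1 libraries 1 and 2, with 42709093 to 67530603 UMIs per library. Barcodes shared with another library made up 1.93% to 7.21% of each library. Con library 2 stood apart in having Xist (1240 CPM, with Ddx3y at 0 CPM), whereas the other 3 libraries had Xist at 0.0839 to 0.883 CPM and Ddx3y at 41.0 to 59.8 CPM, and 1 of the 31 genes, Pgk1, is X-linked. Malat1 itself was at 40870 and 25990 CPM in the tumour cells of the Con libraries and at 26160 and 43460 CPM in those of the mA1 libraries (log2 fold change 0.06 ± 0.35, SE; edgeR adjusted p = 0.979), so "mA1" below names the libraries with this label. Cells were assigned to 16 classes with at least 20 cells in every library, by clustering without the 31 genes and further listed genes of the same pathways (102 listed in all). Tumour-like epithelial cells (950 cells, median 30558 UMIs) held all 8 epithelial markers at a summed 13110 to 13640 CPM per library. An epithelial sub-cluster of 118 cells, led by Lcn2, Chil1 and Lyz2 and with Sftpc among its leading genes, was left out of this class. Neutrophil-like cells (1991 cells) were shallow, at a median of 1545 UMIs, against 11439 in resting (3000 cells) and 17361 in activated (1264 cells) alveolar macrophage-like cells. The activated cluster was led by Inhba, Hilpda and Arg1. Hilpda is 1 of the 31 genes and led this cluster although it took no part in the clustering.

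Promoter sequences show where the HIF motif lies in genes on which the results below turn. The core motif was searched as ACGTG or GCGTG on both strands in the 250 bases before each RefSeq gene start (GRCm38.p6, the assembly of mm10), and overlapping matches were each counted. Of the 31 genes, 29 had an entry, and 27 of these (93.1%) had a match in at least 1 promoter, against 41.5% of all 27025 genes in the table. The stricter form ACGTG was present in 20 of the 29 (69.0%) and in 18.5% of all genes. Counted over promoters in place of genes, 80.0% of 40 and 38.6% of 32851 held a match. The promoters of the 29 genes were also richer in G and C, with a median of 62.8% against 52.4%, and matches are descriptions of sequence and not of binding. Gpi1 and Tpi1 had no match among these letters in this window. The stretches below run 5′ to 3′ on the gene's strand from 12 bases before the first match to 12 bases after the last, in lower case with the matches in capitals. P4ha2 (chr11:54100805-54100871, plus strand), Bnip3 (chr7:138909525-138909635, minus strand) and Ddit4 (chr10:59951869-59951969, minus strand) are shown as genes high in tumour cells. Of these, Bnip3 was about as high in neutrophil-like cells (53.7 against 56.0 CPM), and Ddit4 was highest in CD4 T-like cells (97.2 CPM). Slc2a1 (chr4:119108672-119108725, plus strand), Hk2 (chr6:82774490-82774692, minus strand) and Egln3 (chr12:54204087-54204115, minus strand) are shown as genes high in neutrophils and higher in activated than in resting macrophages. In activated macrophages, Slc2a1 was below its mean in tumour-like epithelial cells (41.4 CPM) and Egln3 below that in gamma-delta T-like cells (9.98 CPM). Hk2 was higher in C1q macrophage-like cells (171 CPM) than in activated macrophages.
P4ha2: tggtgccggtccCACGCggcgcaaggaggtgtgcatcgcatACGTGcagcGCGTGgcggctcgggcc
Bnip3: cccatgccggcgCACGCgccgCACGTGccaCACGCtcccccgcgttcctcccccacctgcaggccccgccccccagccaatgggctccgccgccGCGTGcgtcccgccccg
Ddit4: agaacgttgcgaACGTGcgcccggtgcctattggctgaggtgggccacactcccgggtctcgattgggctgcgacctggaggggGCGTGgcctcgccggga
Slc2a1: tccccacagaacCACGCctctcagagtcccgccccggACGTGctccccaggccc
Hk2: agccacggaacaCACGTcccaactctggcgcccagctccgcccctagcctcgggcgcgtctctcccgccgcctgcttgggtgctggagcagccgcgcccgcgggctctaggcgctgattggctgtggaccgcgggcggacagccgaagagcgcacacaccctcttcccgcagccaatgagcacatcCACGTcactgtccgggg
Egln3: tgtgcatctcagACGTGagatccaggttt
Bnip3 held 5 matches, of which CACGTG, which reads the same on both strands, gave 2, and Egln3 held 1.

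Across the 16 classes, 8 of the 31 genes had their highest mean level in tumour-like epithelial cells, 7 in neutrophil-like cells, 4 in activated alveolar macrophage-like cells and 3 in CD4 T-like cells, with the other 9 spread over 7 classes. Glycolytic enzymes were measured in every class. Gapdh, the oxidoreductase of the pathway's middle step, ranged from 476 CPM in B cell-like cells to 2407 CPM in proliferating macrophage cluster 18, a 5.05-fold span on the scale of CPM + 1 used for all spans here. Pgk1, the first ATP-yielding kinase of the pathway, spanned 3.62-fold and Ldha, lactate dehydrogenase A, 12.5-fold. The genes with the widest ranges were the proton-linked lactate exporter Slc16a3 (418-fold), Vegfa (144-fold) and the HIF prolyl hydroxylase Egln3 (106-fold). Plasma cell-like cells had the lowest mean for 16 of the 31 genes, for example 71.0 CPM of Ldha and 15.5 CPM of Hif1a. Their cluster was led by Igha, Jchain and Igkc, and the 5 plasma cell markers alone summed to 45200 to 63220 CPM. CPM are shares of a fixed total, and the part of such genes in the low values was not tested. These counts of highest and lowest classes were not taken over all genes.

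**Figure D1:**
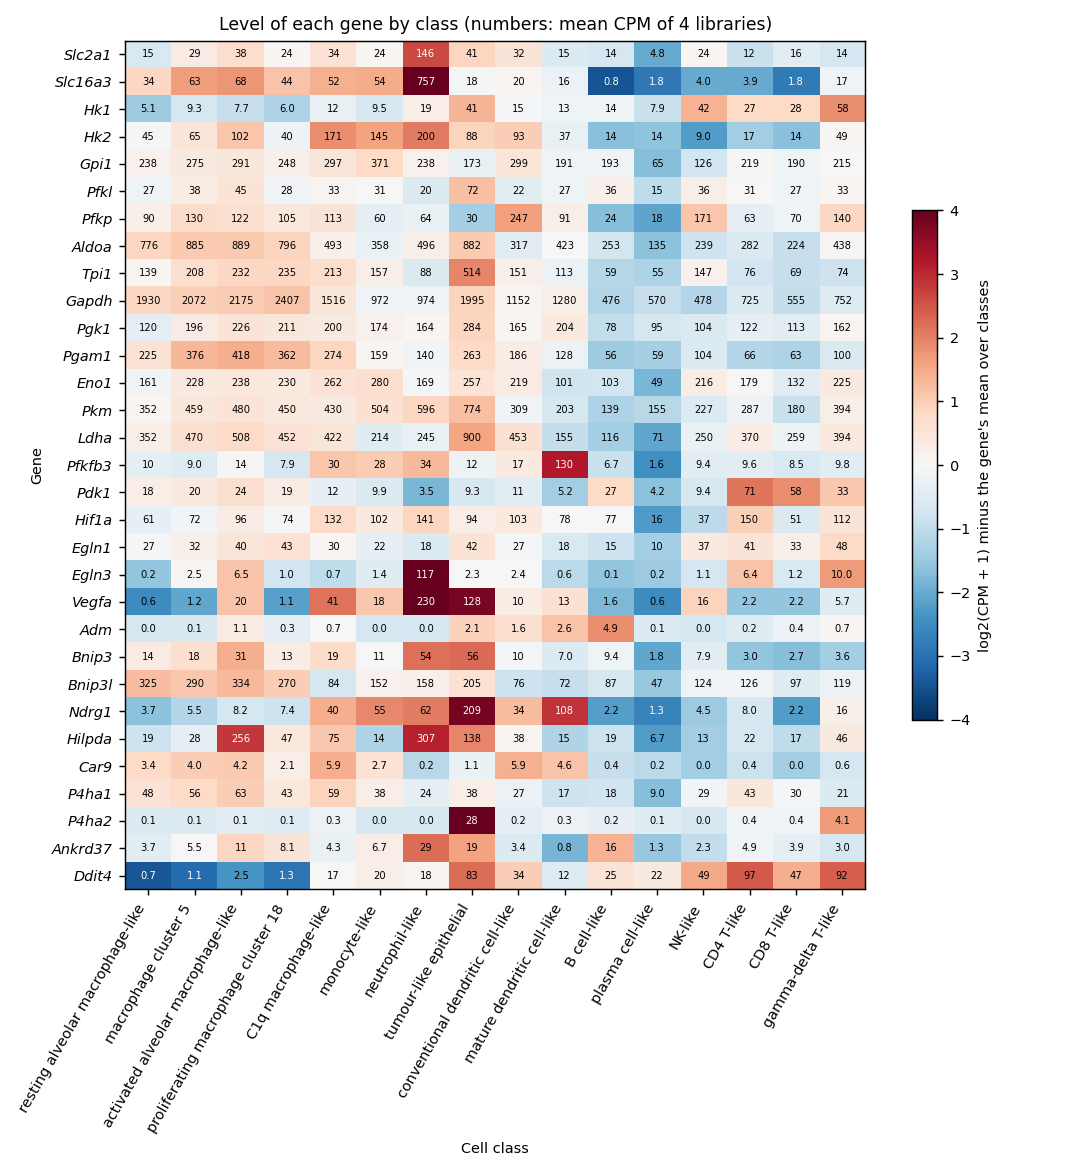
Mean level of each of the 31 genes (rows) in the 16 classes (columns); numbers are CPM averaged over 4 libraries and the colour is log2(CPM + 1) minus the gene's mean over classes. Slc16a3 (757 CPM) and Egln3 (117 CPM) stand out in neutrophil-like cells, and P4ha2 (28.5 CPM) and Ndrg1 (209 CPM) in tumour-like epithelial cells.

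Several genes were highest outside the classes compared below. Pfkfb3, which makes the activator of phosphofructokinase, was at 130 CPM in mature dendritic cell-like cells and 33.9 CPM in the next class, neutrophil-like cells, without overlap between libraries. Pfkp, the platelet-type phosphofructokinase, was highest in conventional dendritic cell-like cells (247 CPM), above NK-like cells (171 CPM) in every library. Pdk1, the kinase that closes pyruvate's entry to mitochondria, was highest in CD4 T-like (70.9 CPM) and CD8 T-like cells (57.6 CPM), whose libraries overlapped. Hk1, the housekeeping hexokinase, was highest in gamma-delta T-like cells (58.4 CPM) and overlapped with NK-like cells (42.4 CPM). Hif1a reached 150 CPM in CD4 T-like and 141 CPM in neutrophil-like cells, with overlap, and Egln1, the main HIF prolyl hydroxylase, ranged from 10.3 to 48.2 CPM. Gpi1, glucose phosphate isomerase, was highest in monocyte-like cells (371 CPM), as was Eno1, enolase (280 CPM), the latter overlapping with C1q macrophage-like cells (262 CPM).

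Some of the genes were barely detected. Adm, which encodes the vasodilator adrenomedullin, had 167 UMIs in all 16 classes together and did not exceed 4.92 CPM in any. Car9, a cell-surface carbonic anhydrase widely used as a hypoxia marker, had 537 UMIs and did not exceed 5.92 CPM. P4ha2, a subunit of the enzyme that hydroxylates collagen prolines, had 961 of its 999 UMIs in tumour-like epithelial cells. In neutrophil-like cells, Adm and P4ha2 had 0 UMIs, which allows up to 0.886 CPM at this depth, counting error only.

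Tumour-like epithelial cells were set against the mean of the 15 other classes within each library. All 15 were immune cell classes, since fibroblast-like and endothelial-like cells were too few to enter. The contrast is therefore one of epithelial against immune cells, without normal epithelium beside it. Since classes come from clusters, this is a description without a test. A gene was called higher or lower where it differed at least 1.5-fold in all 4 libraries, among genes with a mean of at least 5 CPM on either side, on the scale of log2(CPM + 1), which understates changes of low genes. Of 29 such members, 14 were higher and 4 lower in tumour cells. The background over all 11154 genes was 23.8% higher and 22.8% lower. The members' median log2 ratio was 0.73, against 0.05 for all genes.

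Among hypoxia-induced genes, P4ha2 was at 23.9 and 22.3 CPM in the tumour cells of the Con libraries and 43.0 and 24.7 CPM in those of the mA1 libraries, with a mean of 0.42 CPM in the other classes (log2 ratio 4.34 ± 0.49, SD over 4 libraries). Ndrg1, a stress-induced cytoplasmic protein gene, was at 212.9, 200.2, 222.8 and 200.8 CPM in the same order, against 23.9 CPM elsewhere (3.10 ± 0.28). Vegfa was at 139, 111, 154 and 110 CPM, against 24.2 CPM (2.35 ± 0.10). Its highest mean was that of neutrophil-like cells (230 CPM), without overlap with tumour cells. P4ha2 was highest in mA1 library 1, and the ratio of Vegfa had the smallest SD of the 3. Bnip3, a mitophagy receptor, was at 79.5 and 24.4 CPM in Con and 77.4 and 42.9 CPM in mA1, against 13.7 CPM elsewhere (1.83 ± 0.66), with Con library 2 lowest. Ddit4, an inhibitor of mTORC1, was also higher (83.3 CPM, log2 ratio 1.49 ± 0.26), although its highest means were those of CD4 T-like (97.2 CPM) and gamma-delta T-like cells (92.0 CPM), whose libraries overlapped. Also higher were the ankyrin repeat gene Ankrd37 (18.7 CPM, 1.31 ± 0.49) and Hilpda, an inhibitor of lipid droplet breakdown (138 CPM, 1.20 ± 0.35). Both had a higher mean in neutrophil-like cells (29.3 and 307 CPM), and Hilpda also in activated alveolar macrophage-like cells (256.5 CPM).

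Of the glycolytic enzymes, 7 were higher in tumour cells. Tpi1, triose phosphate isomerase, was at 602, 443, 498 and 513 CPM in Con libraries 1 and 2 and mA1 libraries 1 and 2, against 134 CPM elsewhere (log2 ratio 1.92 ± 0.15). Ldha was at 900 ± 83.2 CPM (mean ± SD, n = 4 libraries) against 316 CPM (1.51 ± 0.16), and the pyruvate kinase gene Pkm at 774 CPM against 344 CPM (1.16 ± 0.15). The liver-type phosphofructokinase Pfkl (1.21 ± 0.26), Hk1 (1.11 ± 0.16), Pgk1 (0.85 ± 0.20) and Gapdh (0.73 ± 0.08) also passed. Hk1 and Gapdh had their highest means elsewhere, in gamma-delta T-like cells (58.4 CPM) and proliferating macrophage cluster 18 (2407 CPM). With effective library sizes from TMM scaling, or with each cell weighted equally, Gapdh, Hilpda and Ankrd37 no longer passed in every library, and none of the 18 called members changed sign under either. Aldoa, the muscle-type aldolase, had a log2 ratio of 0.89 ± 0.28 but fell short in Con library 2 (0.51).

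The 4 members lower in tumour cells were a transporter, a phosphofructokinase, a mitochondrial kinase and a HIF hydroxylase. Slc16a3 was at 21.6, 13.3, 26.3 and 10.5 CPM, against 75.9 CPM in the other classes (log2 ratio -2.11 ± 0.53). Pfkp was at 50.1, 27.9, 17.9 and 22.7 CPM, against 100.5 CPM (-1.83 ± 0.68). Egln3 was at 1.85, 0.88, 5.55 and 1.03 CPM, against 10.1 CPM (-1.92 ± 0.78), and Pdk1 at 9.34 CPM against 21.7 CPM (-1.19 ± 0.46). Slc16a3 and Egln3 were highest among the other classes in neutrophil-like cells, at 757 and 117 CPM. The next highest classes were activated alveolar macrophage-like cells for Slc16a3 (67.7 CPM) and gamma-delta T-like cells for Egln3 (9.98 CPM). Both genes were lowest in B cell-like cells (0.814 and 0.115 CPM), below tumour cells. The means used for these 2 genes thus rest largely on neutrophil-like cells, and ratios without that class were not taken.

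**Figure D2:**
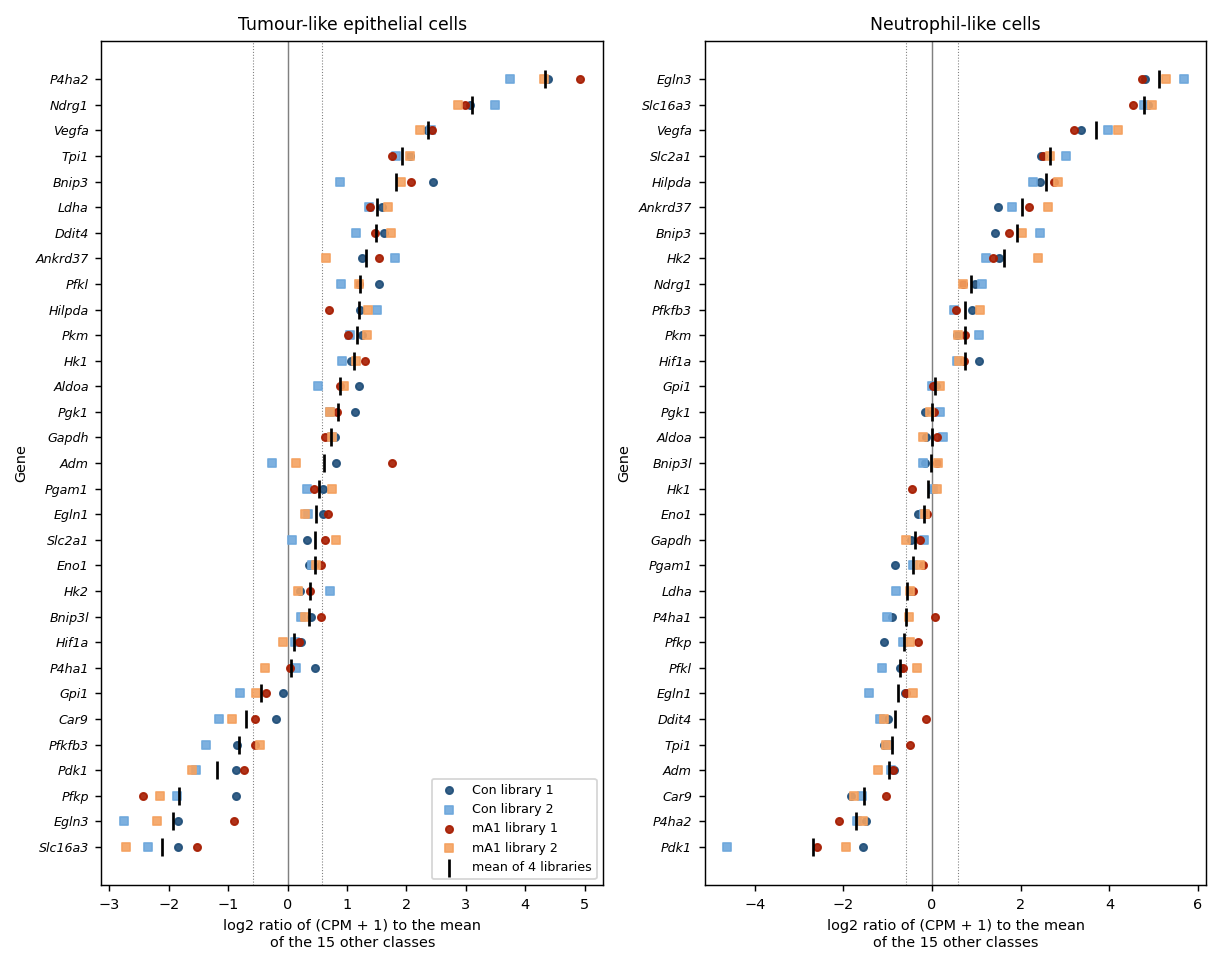
Log2 ratio of (CPM + 1) in tumour-like epithelial cells (left) and neutrophil-like cells (right) to the mean of the 15 other classes for each of the 31 genes; points are the 4 libraries, black ticks their mean, dotted lines 1.5-fold. P4ha2 (4.34) leads on the left and Egln3 (5.12) on the right, and Slc16a3 is at -2.11 on the left and 4.78 on the right.

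Other genes of the same pathways were mixed in tumour cells. Of 32 further genes of glycolysis and sugar transport, 20 were above 5 CPM, with 4 higher and 6 lower, and of 38 further hypoxia genes 29 were, with 6 higher and 4 lower. The 4 with the largest ratios were all lower. The chemokine receptor gene Cxcr4 was at 1.30 CPM in tumour cells against 103 CPM elsewhere (log2 ratio -5.52), and the glucose transporter Slc2a3 at 1.07 against 27.9 CPM (-3.86). The transporter Slc2a6 was at 0.18 against 15.4 CPM (-3.79) and the hexokinase Hk3 at 0.14 against 10.6 CPM (-3.34). The glucose transporter Slc2a1, one of the 31, was at 41.4 CPM in tumour cells and 29.3 CPM elsewhere (0.46 ± 0.33) and was not called.

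Against activated alveolar macrophage-like cells, a contrast added after the data were seen, tumour cells had 6 of 29 members higher and 3 lower (background over all genes 24.3% and 20.1%), with a median log2 ratio of 0.07. Ddit4 was at 83.3 against 2.47 CPM, Ndrg1 at 209 against 8.16 CPM, and Hk1 at 40.7 against 7.69 CPM. Vegfa, P4ha2 and Tpi1 were the other 3 higher members. Slc16a3, Pfkp and Pdk1 were lower in tumour cells. Gapdh (1995 and 2175 CPM), Aldoa (882 and 889 CPM) and Eno1 (257 and 238 CPM) had similar means in both classes, with log2 ratios between -0.12 and 0.11.

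The tumour cells themselves were not uniform in these genes. Sub-clusters of the epithelial cells gave a state 1 led by Cxcl3 and Ly6a (271 cells). They also gave a state 3 with A2ml1 and Acta2 among its leading genes (256 cells, 190 of them in Con library 1). Both were present in every library, but state 3 had 16, 27 and 23 cells in Con library 2 and mA1 libraries 1 and 2. S100a8 and S100a9, which neutrophils make in large amounts, were also among the leading genes of state 3, and their part in the differences was not tested. Of 29 members, 8 were higher and 1 lower in state 3 than in state 1 (background 5.72% and 2.39%), with a median of 0.50 against 0.07 for all genes. Bnip3 was at 109, 33.8, 207.5 and 93.4 CPM in state 3 in Con libraries 1 and 2 and mA1 libraries 1 and 2, and at 30.9, 18.8, 25.9 and 21.1 CPM in state 1. Slc16a3 was at 25.2 to 79.5 CPM against 5.003 to 8.89 CPM, Pdk1 at 14.5 to 31.8 against 3.42 to 6.04 CPM, and Ankrd37 at 21.7 to 88.7 against 7.32 to 11.1 CPM. None of these ranges overlapped. Egln3, Pfkl, Tpi1 and P4ha1 were the other 4 higher members.

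Hilpda ran the other way. It was at 60.8, 46.0, 95.4 and 45.9 CPM in state 3 and at 272.6, 218, 183 and 172 CPM in state 1 (log2 ratio -1.80 ± 0.59). Hilpda and Bnip3, both known to be induced by low oxygen, were thus highest in different ones of these 2 states. Over all cells of a state, Ndrg1 was at 320 CPM in state 2, which is led by Prl2c3 and Npy and also holds Hmga2 and Igfbp3 (161 of its 181 cells in Con library 1), at 256 CPM in state 1, 171 CPM in state 3 and 83.1 CPM in state 7, led by Ifit1. Hilpda was at 256, 207, 62.3 and 41.2 CPM in those 4 states, and Bnip3 at 64.8, 24.02, 114 and 62.4 CPM. These sums hide differences between libraries, since Ndrg1 was at 359 CPM in state 3 and 264 CPM in state 1 in mA1 library 1, and its log2 ratio of state 3 to state 1 was -0.58 ± 0.84 and not called. Vegfa varied less, at 182, 132, 115 and 124 CPM. State 8 (118 cells), left out of the tumour-like class, had Ndrg1 at 52.6, Hilpda at 14.7, Bnip3 at 90.6 and Vegfa at 99.4 CPM.

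**Figure D3:**
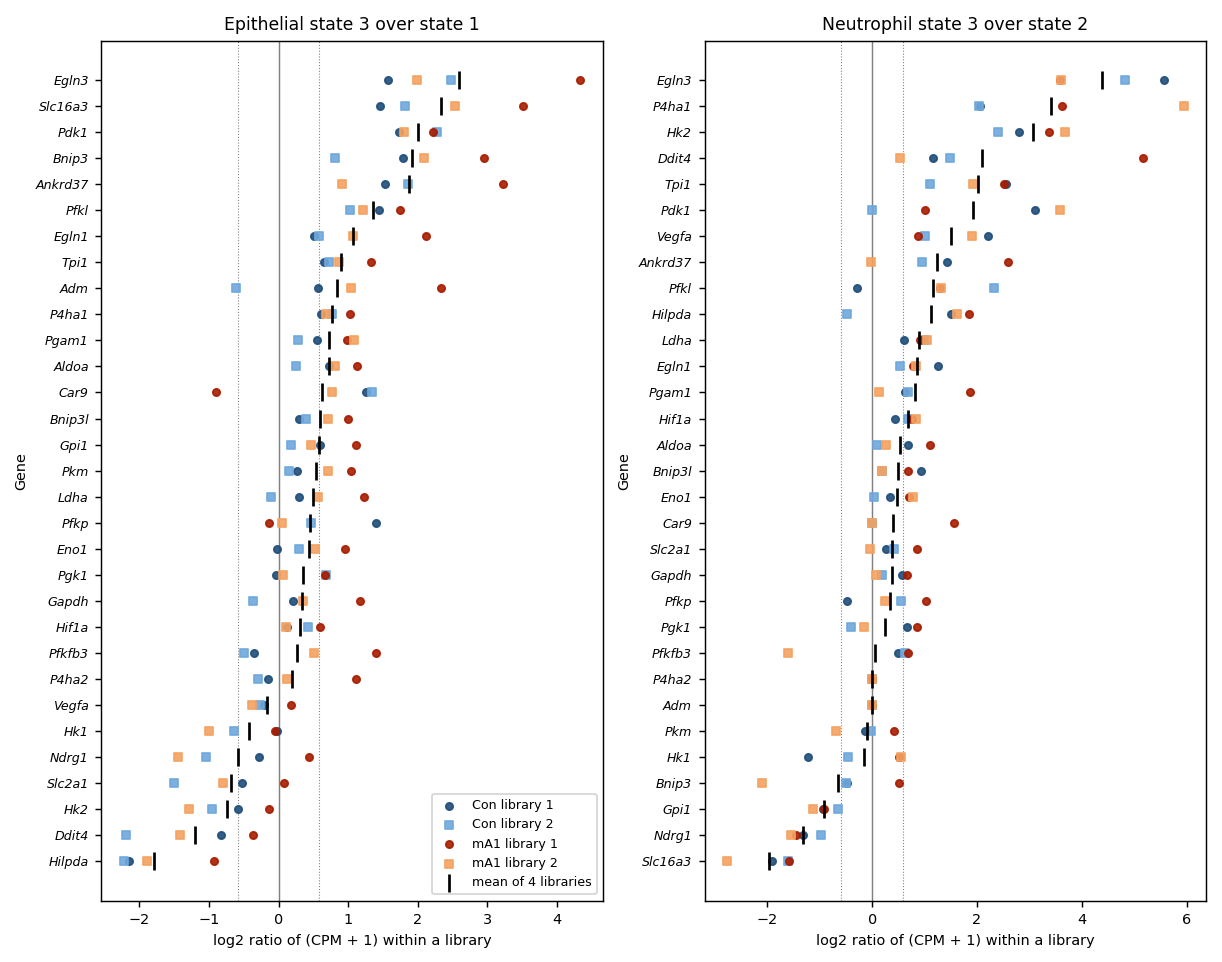
Log2 ratio of (CPM + 1) between 2 epithelial states (left) and 2 neutrophil states (right) for each of the 31 genes; points are the 4 libraries, black ticks their mean, dotted lines 1.5-fold. Bnip3, Ankrd37 and Pdk1 lie right of the line and Hilpda left of it in all libraries for the epithelial states, and Egln3 and Slc16a3 part in opposite directions for the neutrophil states.

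Activated and resting alveolar macrophage-like cells were compared within each library. Of 27 members above 5 CPM, 5 were higher at least 1.5-fold in all 4 libraries of activated cells and 0 were lower, where the background over 9088 genes was 3.36% higher and 0.275% lower. The median log2 ratio was 0.61 against -0.02 for all genes. Of the 27, 24 had one sign in all libraries, a count that was not taken over all genes. The 5 were Hilpda, Vegfa, Egln3, Slc2a1 and the inducible hexokinase Hk2. Library 2 of mA1 had the smallest ratio for most members, and without it 13 members passed, where 4.63% of all genes did. With each cell weighted equally, Egln3 no longer passed.

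Hilpda was at 344.7 and 197 CPM in activated cells of Con libraries 1 and 2 and at 337 and 148 CPM in those of mA1 libraries 1 and 2, against 25.4, 14.9, 21.1 and 16.4 CPM in resting cells (log2 ratio 3.60 ± 0.36, 12.1-fold). Vegfa was at 30.6, 14.6, 28.7 and 4.17 CPM against 0.69, 0.50, 0.90 and 0.34 CPM (3.38 ± 1.02), with 541 UMIs in activated and 22 in resting cells. Egln3 was at 7.36, 3.79, 13.1 and 1.60 CPM against a mean of 0.16 CPM (2.42 ± 1.04). No library overlapped between the 2 classes for these 3 genes. Slc2a1 was at 40.7, 28.8, 51.7 and 28.9 CPM against 18.6, 11.9, 13.9 and 13.8 CPM (1.28 ± 0.37). Hk2 was at 114, 87.7, 90.9 and 114 CPM against 44.8, 46.1, 41.4 and 48.7 CPM (1.14 ± 0.18), and was the one of the 5 whose smallest ratio was not in mA1 library 2.

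Below these came Ankrd37, at 16.1, 5.24, 18.9 and 2.57 CPM against 5.88, 0.74, 5.75 and 2.35 CPM (log2 ratio 1.20 ± 0.77), and Bnip3, at 32.4, 26.8, 49.2 and 16.7 CPM against 17.8, 8.91, 14.8 and 13.8 CPM (1.06 ± 0.65). Their ratios in mA1 library 2 were 0.09 and 0.25, and those in the other 3 libraries were 0.83 to 1.84. Adm had 29 UMIs in activated and 1 in resting cells, below the CPM limit. The glycolytic enzymes other than Hk2 had smaller ratios and were not called. Pgam1, phosphoglycerate mutase, was at 418 against 225 CPM (0.86 ± 0.40), and Pgk1 at 226 against 120.5 CPM (0.85 ± 0.37). Tpi1 was at 232 against 139 CPM (0.70 ± 0.29), Ldha at 508 against 352 CPM (0.50 ± 0.23) and Gapdh at 2175 against 1930 CPM (0.18 ± 0.17). Slc16a3 had a log2 ratio of 0.94 ± 0.31, Hif1a 0.61 ± 0.22 and Egln1 0.52 ± 0.14. Bnip3l, a receptor for mitophagy related to Bnip3, was at 334 and 325 CPM (0.04 ± 0.03).

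**Figure D4:**
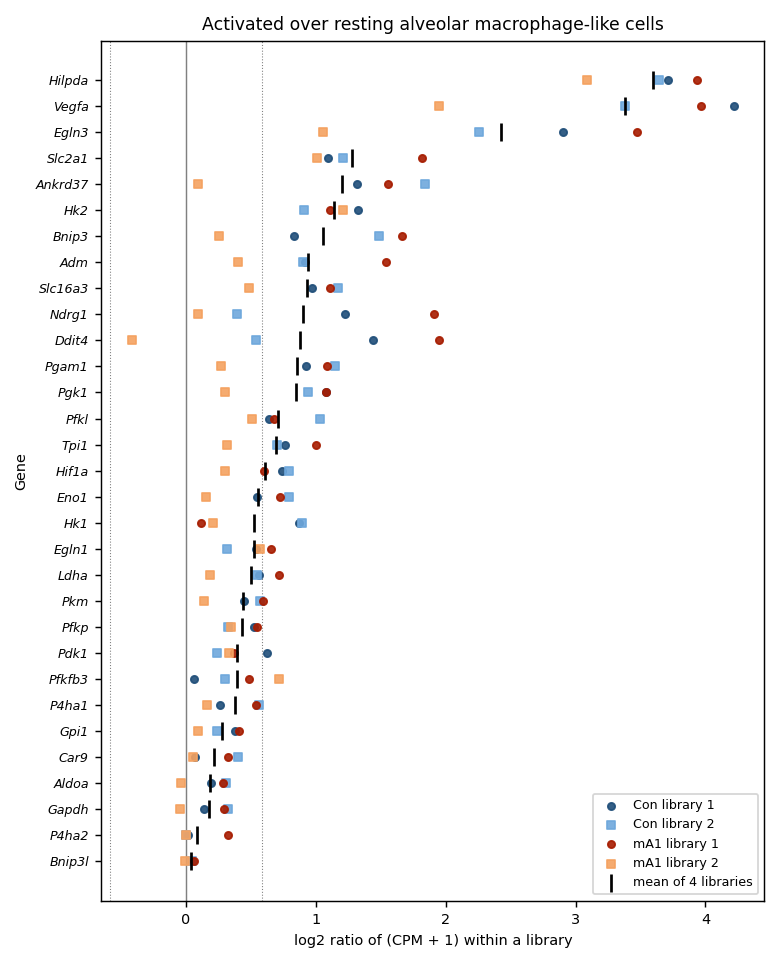
Log2 ratio of (CPM + 1) in activated over resting alveolar macrophage-like cells for each of the 31 genes; points are the 4 libraries, black ticks their mean, dotted lines 1.5-fold. Hilpda (mean 3.60), Vegfa (3.38) and Egln3 (2.42) are at the top, and mA1 library 2 lies at the left end for most genes.

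The same ratio was taken in 8 sets of cells, each having 1 hashtag in 1 library, with 80 to 362 activated and 119 to 530 resting cells. The labels give 4 tumours per group and do not tie a hashtag to a tumour. The ratio was positive in all 8 sets for 17 of the 31 genes and in at least 7 for 22. The same counts were not taken over all genes. Hilpda ranged from 7.13-fold to 16.7-fold, Hk2 from 1.75-fold to 2.52-fold and Slc2a1 from 1.44-fold to 3.81-fold. Vegfa ranged from 2.18-fold to 22.9-fold. Egln3 was positive in 5 of 8 sets, with log2 ratios from -0.68 to 3.55.

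Markers of neighbouring cells were measured in the same sums. The 9 neutrophil markers, all detected, summed to 99.1 to 174 CPM in activated and 80.9 to 185 CPM in resting cells, and the 8 epithelial markers, all detected, to 175 to 326 and 168 to 437 CPM, with overlapping ranges for both lists. The 7 C1q macrophage markers were higher, at 77.3 to 223 CPM (7 detected) against 38.8 to 62.1 CPM (6 detected). The 8 markers of activated neutrophils, all detected, were also higher, at 1186 to 1637 CPM against 594 to 784 CPM. The 5 red blood cell markers were lower in activated cells in every library, at 15.4, 7.57, 6.29 and 3.85 CPM (4 detected), against 272, 9.41, 364 and 6.46 CPM in resting cells (5 detected). The part of these lists in the ratios was not tested. The 8 resting markers were lower in activated cells in every library, but the ranges overlapped, at 13760 to 18660 against 17720 to 19740 CPM. The 8 activation markers summed to 3819, 3287 and 3023 CPM in the activated cells of the other libraries and to 2083 CPM in mA1 library 2, the library with the smallest ratios. The part of that difference in the smaller ratios was not tested.

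Of the further pathway genes, 1 of 18 glycolysis genes and 3 of 27 hypoxia genes above 5 CPM were higher in activated cells, and 0 were lower. Ier3, an immediate early gene that is also a hypoxia target, was at 275 against 13.6 CPM (log2 ratio 4.10 ± 0.53), and the transporter Slc2a6 at 9.61 against 3.03 CPM (1.40 ± 0.30). The transcriptional repressor Bhlhe40 was at 334 against 138 CPM (1.26 ± 0.19) and Cited2, which restrains HIF1A, at 83.4 against 38.8 CPM (1.07 ± 0.41).

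Macrophage cluster 5, led by Ccl17 and Mmp12, was compared with resting cells in the same way, a contrast added after the data were seen. It had 2 of 25 members higher, Slc2a1 (28.7 against 14.6 CPM) and Slc16a3 (63.4 against 34.5 CPM), and 0 lower (background 1.4% and 0.122%), with a median log2 ratio of 0.45. Its activation markers were as high as in the activated cluster, at 3476 to 3823 CPM, but Hilpda was at 27.6 CPM and Vegfa at 1.17 CPM, against 19.4 and 0.61 CPM in resting cells and 256.5 and 19.5 CPM in activated cells. Pgam1 (377 CPM), Pgk1 (196 CPM) and Ldha (470 CPM) lay near their levels in the activated cluster.

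Neutrophil-like cells had 9 of 28 members higher than the mean of the 15 other classes in all 4 libraries and 1 lower. The background over 10274 genes was 12.4% higher and 47.4% lower, and the members' median log2 ratio was 0.00 against -1.05 for all genes. TMM scaling moved the median of all genes up by 0.41 and added Pkm, Pfkfb3 and Hif1a, and all 10 called members passed again. Red blood cell markers summed to 1583 CPM in the neutrophil-like cells of Con library 2 and to 11.5 to 62.9 CPM in the other 3, and their part in the ratios was not tested.

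Egln3 and Slc16a3 had the highest ratios, followed by Vegfa (3.69). Egln3 was at 100.2 and 147 CPM in the Con libraries and 120 and 101 CPM in the mA1 libraries, against 2.44 CPM in the other classes (log2 ratio 5.12 ± 0.44). Slc16a3 was at 814.5, 711, 732 and 771 CPM, against 26.6 CPM (4.78 ± 0.18). Slc2a1 was at 137.5, 160, 156 and 131 CPM, against 22.3 CPM (2.66 ± 0.25). In none of the 3 genes did a library of the next highest class reach the neutrophil range.

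Of the 11 hypoxia-induced genes, 5 were called higher, namely Vegfa, Hilpda, Ankrd37, Bnip3 and Ndrg1, and P4ha1, Bnip3l and Ddit4 were not. Car9 was below the CPM limit and not assessed, as were Adm and P4ha2, which had 0 UMIs in these cells. Vegfa was at 225, 217, 221 and 257 CPM, against 17.5 CPM (log2 ratio 3.69 ± 0.48), and Hilpda at 330.5, 204, 435 and 259 CPM, against 50.3 CPM (2.57 ± 0.26). Hilpda overlapped with activated alveolar macrophage-like cells. Ankrd37 was at 23.5, 14.7, 39.9 and 39.0 CPM, against 6.20 CPM (2.02 ± 0.49), from 102 UMIs in all. Bnip3 was at 44.8, 60.2, 64.0 and 45.9 CPM, against 13.9 CPM (1.91 ± 0.43), and Hk2 (1.62 ± 0.52) and Ndrg1 (0.88 ± 0.21) completed the 9.

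Apart from Hk2, no glycolytic enzyme was called higher. Pdk1 was the lower member, at 6.40, 0, 3.01 and 4.59 CPM from 12 UMIs, against 22.1 CPM (log2 ratio -2.68 ± 1.36). Tpi1 (-0.90 ± 0.27), Ldha (-0.56 ± 0.17), Pgam1 (-0.44 ± 0.29) and Gapdh (-0.38 ± 0.18) were below 0 in every library without reaching 1.5-fold in all, and Aldoa (0.00 ± 0.20) and Pgk1 (0.00 ± 0.14) were near the mean of the other classes. Among 18 further glycolysis and transport genes above 5 CPM, 5 were higher and 7 lower, with Slc2a3 at 225 against 12.95 CPM (4.01 ± 0.31). Among 28 further hypoxia genes, 8 were higher and 8 lower, led by Ier3 at 4815 against 147 CPM (5.04 ± 0.37), Rora at 0.72 against 49.1 CPM (-5.03 ± 0.78) and Angptl4 at 0.63 against 26.4 CPM (-4.18 ± 0.53).

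Within neutrophil-like cells, state 3, with Ccl3, Cxcl3 and Egln3 among its leading genes (643 cells), was set against state 2, with Retnlg and Mmp8 among its own (717 cells). Ccl3, a chemokine of activated neutrophils, was at 4301 against 150 CPM and Retnlg, a gene of mature circulating neutrophils, at 468 against 8138 CPM. State 2 was led by haemoglobin genes, and their part in the differences was not tested. Of 28 members, 6 were higher and 3 lower in state 3 (background 19.2% and 5.35%), and the median log2 ratio of 0.61 was below that of all genes, 0.70.

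Egln3 was at 217, 370.5, 271 and 192.5 CPM in state 3 and at 3.60, 12.2, 21.6 and 14.9 CPM in state 2. Hk2 was at 332, 285, 310 and 682 CPM against 46.8, 52.8, 28.8 and 52.1 CPM. P4ha1, the main catalytic subunit of collagen prolyl hydroxylase, had 69 UMIs in state 3 and 6 in state 2. Vegfa (log2 ratio 1.51 ± 0.66), Tpi1 (2.02 ± 0.68) and Ldha (0.89 ± 0.20) were also higher. Slc16a3 was lower in state 3 in every library, at 342, 342, 345 and 209 CPM against 1281, 1048, 1035 and 1422 CPM (-1.97 ± 0.55), as were Ndrg1 (-1.33 ± 0.25) and Gpi1 (-0.91 ± 0.19). Hilpda was higher in 3 of 4 libraries, at 539 against 204 CPM over all cells, but not in Con library 2, where it was at 179 against 252 CPM.

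The difference between mA1 and Con was tested with edgeR's quasi-likelihood test over all genes in each class, with 2 libraries per group. None of the 31 genes was called at an adjusted p under 0.05 in any of the 16 classes. Of 393 tests of members in these classes, 27 (6.87%) had an unadjusted p under 0.05, against 4.25% of 135823 tests over all genes. In tumour-like epithelial cells the background of called genes was 0.126% (15 of 11949), in neutrophil-like cells 0.0188% (1 of 5320), and in both resting and activated alveolar macrophage-like cells 0.0%, where 314 and 233 genes had an unadjusted p under 0.05 in edgeR. DESeq2 called 0 members in these 4 classes. Where nothing says that libraries came from separate animals, p-values measure the spread between these libraries.

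In tumour-like epithelial cells, 18 of the 31 genes had a positive and 13 a negative log2 fold change (mA1 minus Con), with a median of 0.01 against -0.01 for all 11949 genes. The groups did not overlap for 6 members, where 39.7% of all genes were without overlap. Pfkp was at 50.1 and 27.9 CPM in Con and 17.9 and 22.7 CPM in mA1 (-0.96 ± 0.31, SE; edgeR adjusted p = 0.445). P4ha1 was at 53.4 and 39.0 CPM in Con and 30.5 and 27.7 CPM in mA1 (-0.70 ± 0.20; edgeR adjusted p = 0.347). The groups did not overlap for either gene, and without a filter on low counts both genes passed edgeR's threshold (adjusted p = 0.000868 and 0.0325).

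The states of tumour cells were unevenly spread over the libraries. State 2 had 161 of its 181 cells in Con library 1, state 5 had 79 of 96 in Con library 2, and the 13 cells of state 10 were all in mA1 libraries. Pfkp was at 20.7 and 34.0 CPM in Con and 19.4 and 24.8 CPM in mA1 in state 1, and at 19.6 and 23.9 against 22.1 and 21.2 CPM in state 7, with overlap in both states. In state 3 (190 and 16 cells in Con, 27 and 23 in mA1) it was at 56.5 and 47.6 against 17.6 and 25.8 CPM, without overlap. Over all cells of state 2, Pfkp was at 58.8 CPM. P4ha1 was at 40.6 and 34.0 against 22.0 and 22.7 CPM in state 1 and at 62.7 and 58.3 against 46.0 and 37.0 CPM in state 3, without overlap, and at 48.4 and 30.9 against 41.4 and 44.0 CPM in state 7, with overlap. The part of the makeup of states in the group difference was not tested.

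In the same tumour cells, Egln3 was at 1.85 and 0.88 CPM against 5.55 and 1.03 CPM (1.14 ± 0.76; edgeR adjusted p = 0.723), and Adm at 1.98 and 0.55 CPM against 4.30 and 1.47 CPM (1.05 ± 0.71; edgeR adjusted p = 0.723), with mA1 library 1 the high one for both. Without that library Egln3 was at -0.39.

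In activated alveolar macrophage-like cells, 29 members were tested, 14 positive and 15 negative, with a median log2 fold change of -0.01, and none had an unadjusted p under 0.05 in edgeR. The groups did not overlap for 2 of the 29, and for 28.4% of all genes. The 4 with the largest estimates were Egln3 (0.51 ± 0.93, SE), Vegfa (-0.35 ± 1.03), Hif1a (-0.35 ± 0.17) and Hk1 (-0.35 ± 0.27), each with an edgeR adjusted p of 1.00. Egln3 was at 7.36 and 3.79 CPM in Con and 13.1 and 1.60 CPM in mA1, so that 1 mA1 library was above and the other below both controls, and without mA1 library 1 its estimate was -1.85. Vegfa had the same spread within mA1, 28.7 and 4.17 CPM. Hif1a was at 91.7 and 126 CPM in Con and 94.4 and 70.9 CPM in mA1, which overlapped. Hk1 was at 7.99 and 9.61 CPM in Con and 7.38 and 5.78 CPM in mA1, without overlap.

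In resting alveolar macrophage-like cells, 26 members were tested, with a median log2 fold change of 0.03, and Egln3, Vegfa, Adm, P4ha2 and Ddit4 were too low to test. For 8 of the 26, against 31.3% of all genes, the groups did not overlap. Ndrg1 was at 3.34 and 6.19 CPM in Con and 2.43 and 2.94 CPM in mA1 (-0.71 ± 0.37, SE). Hk1 was at 3.92 and 4.70 CPM against 6.74 and 4.87 CPM (0.48 ± 0.29), and at -0.12 where the listed genes took part in the clustering. Pfkfb3 was at 11.6 and 11.4 CPM against 8.54 and 9.15 CPM (-0.35 ± 0.19) and Eno1 at 150.0 and 137 CPM against 176 and 182 CPM (0.35 ± 0.12). The groups did not overlap in these 4 genes, and the edgeR adjusted p was 1.00 for each (0.9995 before rounding). Without Con library 1, Gapdh was called, at 0.59 ± 0.10 (edgeR adjusted p = 0.0429).

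In neutrophil-like cells, 27 members were tested, 17 positive and 10 negative, with a median of 0.07, and Pdk1, Adm, Car9 and P4ha2 were too low to test. There was no overlap for 8 of the 27 members and for 32.4% of all genes. Ankrd37 was at 23.5 and 14.7 CPM in Con and 39.9 and 39.0 CPM in mA1 (0.94 ± 0.35, SE; edgeR adjusted p = 0.999), without overlap. Pfkfb3 was at 35.2 and 42.6 CPM against 27.8 and 29.8 CPM (-0.52 ± 0.32) and P4ha1 at 21.3 and 17.6 CPM against 30.9 and 25.2 CPM (0.48 ± 0.36), also without overlap. Hk2 was at 185.5 and 132 CPM against 148 and 332.5 CPM (0.45 ± 0.36), and without mA1 library 2, the high one, its estimate was -0.18. The median SE of the members was 0.16 in resting macrophages, 0.20 in tumour cells, 0.22 in activated macrophages and 0.25 in neutrophils on the log2 scale. Of the further pathway genes, 0 were called in these 4 classes.

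**Figure D5:**
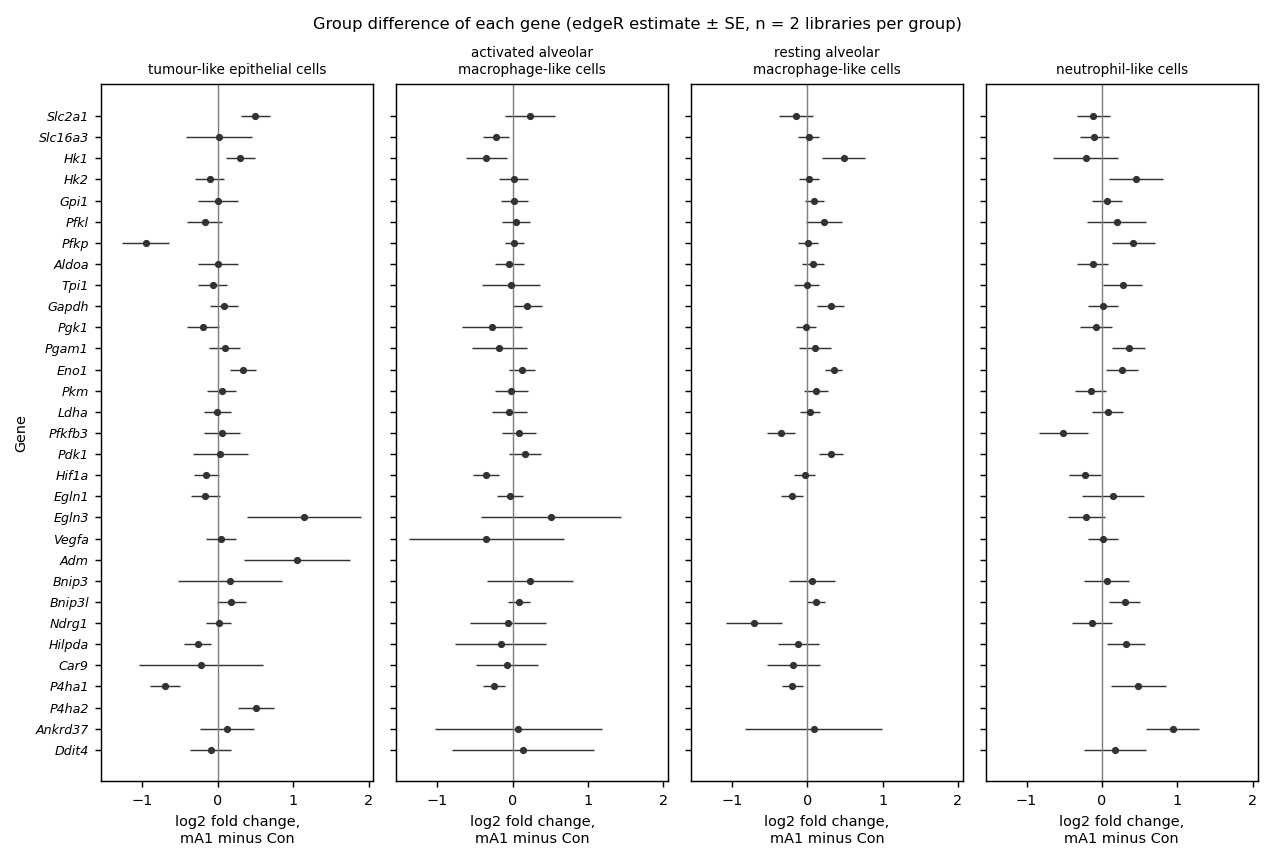
Log2 fold change (mA1 minus Con) with its standard error from edgeR for each tested gene in 4 classes, from 2 libraries per group. Most estimates lie within 0.5 of 0, and the widest intervals are those of Egln3, Vegfa, Ankrd37 and Ddit4 in activated alveolar macrophage-like cells.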

How the data were processed

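Single-cell libraries of lung tumours were made with the 10x 3' v3 chemistry from tumours digested with collagenase IV and DNase and depleted of dead cells, per the labels' protocols. The deposited values are UMI counts per gene and cell, and the submitters' processing notes name Cell Ranger 6.0.1 and mm10. Hashtag counts came with them as deposited by the authors.

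Cells with at least 500 UMIs, 250 genes and at most 15% mitochondrial UMIs were kept, and cells with both hashtags or called by Scrublet were removed. Scrublet called 0 cells in Con library 2 and was taken not to have worked there. Clustering used scanpy 1.11.5 (2000 variable genes without the listed genes, 30 components, 15 neighbours, Leiden resolution 1), and classes were named from marker lists. Epithelial states 4, 8 and 9 (175 cells) and neutrophil states 4 and 5 (136 cells) were left out of their classes. Epithelial states 4 and 9 and neutrophil state 5 were led by genes of other cells. Epithelial state 8 (118 cells) was led by Lcn2, Chil1 and Lyz2, with Slc34a2 and Sftpc among its leading genes. Neutrophil state 4 (96 cells) was led by Camp and Ngp, with Chil3 and Car4 also among its leading genes. Neutrophil state 1 (577 cells) was kept, although Cd79a and Ebf1 were among its leading genes.

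UMIs were summed per class and library. Class ratios are log2 of (CPM + 1) ratios within a library. Group differences used edgeR 4.0.16 (TMM, filterByExpr, robust quasi-likelihood test, two-sided, Benjamini-Hochberg adjustment over all genes tested, called under 0.05), with DESeq2 1.42.0 as an alternative. Counts were simulated from the mean levels and library sizes of these libraries. Every gene had the same fixed spread, which was not estimated from these libraries, so recovery at their real spread was not measured. Of 200 genes changed 4-fold, 87.5% were recovered in tumour cells (11949 genes) and 93.5% in activated macrophages (10564). The shares were 92% in resting macrophages (11134) and 85.5% in neutrophils (5297). False calls numbered 5, 22, 7 and 6 in the same order. A single hashtag was called in 24.0% of tumour-like epithelial cells, against 92.1% to 99.8% in the other classes. Tumour cells held 12 to 65 cells in each set with 1 hashtag in 1 library, too few for a comparison of such sets. A second feature named Aldoa held 5 UMIs, and Eno1b held 433 beside 42413 for Eno1. These counts do not measure reads shared between such copies, and the effect of such reads was not tested.

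The members and lists were chosen with earlier results of these data known. Values per library are given for the 8 members with the largest class ratios of one sign in all libraries, for the 4 with the largest group differences, and for others where a comparison turns on them. The 4 further pathway genes with the largest called ratios are named.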

Additional observations from a re-analysis of the deposited data

Results flagged for a closer look

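Bnip3l, a mitophagy receptor gene, had log2 ratios of neutrophil-like cells to the mean of the other classes of -0.16 and -0.21 in Con, whereas mA1 gave 0.10 and 0.13. All libraries of one group lay below 0 and all of the other above it, with group means 0.3 apart. The difference between these ratios was not tested. The level itself, 151 and 123 CPM in Con against 185 and 172 CPM in mA1, differed by 0.30 ± 0.21 (log2, SE; edgeR adjusted p = 0.999).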

How the results depend on the processing

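No called value changed sign under a setting compared here. Of the counts and medians, 118 values stayed the same by their test or spread, 9 moved and 2 passed a threshold not passed in the report. At a limit of 2-fold, 7 members were higher and 1 lower in tumour cells, where 16.4% of all genes were higher and 17.2% lower. With each cell weighted equally, 2 members were lower in neutrophils, as were 48.3% of all genes. Leaving out 1 library at a time gave 4 to 13 members higher in activated macrophages, the 13 being without mA1 library 2 (4.63% of all genes), and 1 to 3 lower in neutrophils, the 3 being without mA1 library 1 (49.3% of all genes) or 2 (52.1%). For the group difference, 2 members (Pfkp and P4ha1) were called in tumour cells with no filter on low counts, and leaving out 1 library gave 0 to 1 called in resting macrophages, Gapdh being called without Con library 1. The median log2 fold change of the members then ranged from -0.43 to 0.22 in activated macrophages, -0.091 to 0.23 in resting macrophages and -0.083 to 0.13 in neutrophils. Where a library was left out, the lone library of its group was assumed to vary like the others. The cause of these changes was not tested.

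Replicate numbers of the 2 groups are only numbers, with correlations of same-numbered deviations of -0.055 in tumour cells, 0.158 in activated macrophages, 0.053 in resting macrophages and -0.057 in neutrophils. With the replicate block, 0 members were called in each of these classes, and the medians were 0.05, -0.04, 0.03 and 0.07 in the same order. Estimates that turned sign are named in the report, among them the largest of tumour cells and of activated macrophages (Egln3), with 4 libraries and a median of 1545 UMIs per neutrophil limiting the precision.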
